A study of Rattus norvegicus with 170 samples.

Results

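The genes described here code for 10 splicing factors of the SR family and its close relatives that CLK kinases phosphorylate: Srsf1, Srsf2, Srsf3, Srsf5, Srsf6, Srsf7, Srsf9, Srsf11, Tra2a and Tra2b. They were chosen by symbol, all 10 were in the table, and they are 10 of its 24113 genes. The question is how the transcripts of these factors stood in rat islet cells after treatment with GNF4877, an aminopyrazine that inhibits the kinases DYRK1A and GSK3B. Whole islets of wild type Sprague Dawley rats, males 8 weeks old, were kept for 48 h in RPMI1640 with 10% FBS and 5.5 mM glucose. One set of islets received 0.1% DMSO and the other 3 µM GNF4877, and the islets were then dissociated. Single cells were captured on Fluidigm C1 chips, their polyadenylated RNA was copied and amplified by PCR, and 86 cells of the DMSO set and 84 cells of the GNF4877 set were sequenced. No animal or chip is named for a cell, so each treatment counts as 1 sample and no test between treatments was possible. The effect of the drug and that of the rats, the chip or the lane cannot be told apart.

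SR proteins bind RNA through an RNA recognition motif and bind other proteins through a tail rich in arginine and serine. Bound to enhancer sequences in exons, they recruit the splicing machinery to nearby splice sites. SRPK kinases phosphorylate the tail in the cytoplasm and allow nuclear import, while CLK kinases, relatives of DYRK1A, phosphorylate it further in the nucleus and release the proteins from nuclear speckles. Many SR genes hold a poison exon whose inclusion sends the transcript to nonsense-mediated decay, and through it several SR proteins limit their own level. The values here are transcript levels, so neither phosphorylation nor exon choice was measured.

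Levels are RPM values, in which each transcript is scaled by the mapped reads of a cell, summed over the transcript rows of a gene and not divided by transcript length, so the levels of the SR factors are compared between cells and not with each other. For marker lists the gene with the most reads is named, which depends on transcript length too. Cells with at least 1000 RPM of Ins1, which codes for insulin 1, are called Ins1-high here, and there were 78 in DMSO and 59 in GNF4877. Cells with at least 1000 RPM of Gcg, the glucagon gene, and less than 1000 RPM of Ins1 are called alpha cells, and there were 5 in DMSO and 18 in GNF4877. The remaining 3 DMSO and 7 GNF4877 cells were in neither class. Mapped reads, recovered from the size of the smallest step between values, had a median of 1235720 in Ins1-high DMSO cells, 1424570 in Ins1-high GNF4877 cells, 961560 in alpha DMSO cells and 1388770 in alpha GNF4877 cells. Despite their greater depth, Ins1-high GNF4877 cells had a median of 7031 genes with a read against 8938 in DMSO, and at an equal depth of 100000 reads the medians were 4918.5 and 6621. The part of depth and of gene number in the results on the SR factors was not tested.

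Marker genes were read in both classes as follows. Of 9 beta cell markers, 8 were in the table and 7 reached a mean of 1 RPM in Ins1-high cells of either treatment. Their summed mean was 66633 RPM in DMSO and 47776 RPM in GNF4877, Ins1 was the most abundant, and Mafa was at 0 in GNF4877. In alpha cells all 6 alpha markers reached 1 RPM, with a summed mean of 388223 RPM in DMSO and 286414 RPM in GNF4877, nearly all of it Gcg. Ins1-high DMSO cells also held 44881 RPM of alpha markers in the mean but 733.9 RPM in the median, against 1362 and 482.3 RPM in GNF4877. A second hormone, Gcg, Sst or Ppy at 1000 RPM or more, was read in 25 of the 78 Ins1-high DMSO cells and in 4 of the 59 in GNF4877. Duct markers had a summed mean of 339.4 RPM in Ins1-high DMSO cells, led by Krt7, and 875.03 RPM in GNF4877, led by Krt8. Acinar and endothelial markers summed to less than 3 RPM in Ins1-high cells of either treatment. Mesenchymal markers summed to 299.8 RPM in DMSO and 0.419 RPM in GNF4877, and immune markers to 11.05 and 65.5 RPM, led by Cd74. Delta markers summed to 105.6 and 281.8 RPM, led by Sst, and PP markers to 2516 and 747.3 RPM, led by Ppy. The sums from duct to PP markers are means over cells. The medians in DMSO and GNF4877 were 274.5 and 610.8 RPM for duct markers and 0 RPM in both for mesenchymal markers. Immune markers had medians of 0.672 and 0 RPM, delta markers 1.13 and 1.21 RPM and PP markers 3.36 and 3.22 RPM.

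Several cells stood apart before any comparison. DMSO cells 48, 73 and 91 and GNF4877 cells 2, 5 and 57 had fewer than 100000 reads on listed transcripts, which were between 2.65% and 13.1% of their mapped reads. DMSO cells 48 and 73 and GNF4877 cell 2 were Ins1-high, and their summed level over the 10 SR factors was 199.3, 29.3 and 18.5 RPM. Without them the median log2 ratio over the 10 factors was 0.09 in place of 0.10, and the summed level differed by 0.24 in place of 0.25.

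In Ins1-high cells, no SR factor differed 2-fold between treatments in its mean level. The 10 genes went different ways: Tra2b and Srsf3 were higher in GNF4877, Tra2a and Srsf9 were lower, and the other 6 lay within 0.36 of 0 on the log2 scale. The log2 ratio, computed as mean RPM + 1 in GNF4877 over mean RPM + 1 in DMSO, had a median over the 10 factors of 0.10 against −0.09 over the 13368 genes with a mean of at least 1 RPM. None of the 10 was 2-fold higher, against 10.1% of those genes, and none was 2-fold lower, against 17.2%. Added together, the 10 factors had a mean of 1764 RPM in DMSO cells (SD 786, n = 78 cells) and 2092 RPM in GNF4877 cells (SD 1014, n = 59 cells). From lowest through median to highest the sum ran over 29.3, 1734 and 5975 RPM in DMSO and over 18.5, 1848 and 4654 RPM in GNF4877, so the cells of both treatments covered nearly the same range.

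The picture depended on how cells were averaged. When log2(RPM + 1) was averaged per cell, so that cells without a read weigh more, the median difference over the 10 factors was −0.67 and that over all genes was −0.49. On that scale 4 factors, Srsf1, Srsf6, Srsf9 and Tra2a, were lower by 1 or more, against 24.6% of genes, and none was higher by 1 or more, against 1.8%. Relative to the median of all genes the 10 factors stood 0.19 above it on the first scale and 0.19 below it on the second. Taken over reads outside the hormone genes Ins1, Ins2, Iapp, Gcg, Sst and Ppy, a setting added after seeing the data, the median log2 ratio was −0.05 and that of all genes −0.21. So the direction for the group as a whole was not fixed, while Tra2b and Srsf3 were above 0 and Tra2a, Srsf9 and Srsf6 below 0 on both scales. Srsf1 was also below 0 on both, at −0.05 and −1.30, but its log2 ratio was 0.12 without DMSO cell 74.

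**Figure D1:**
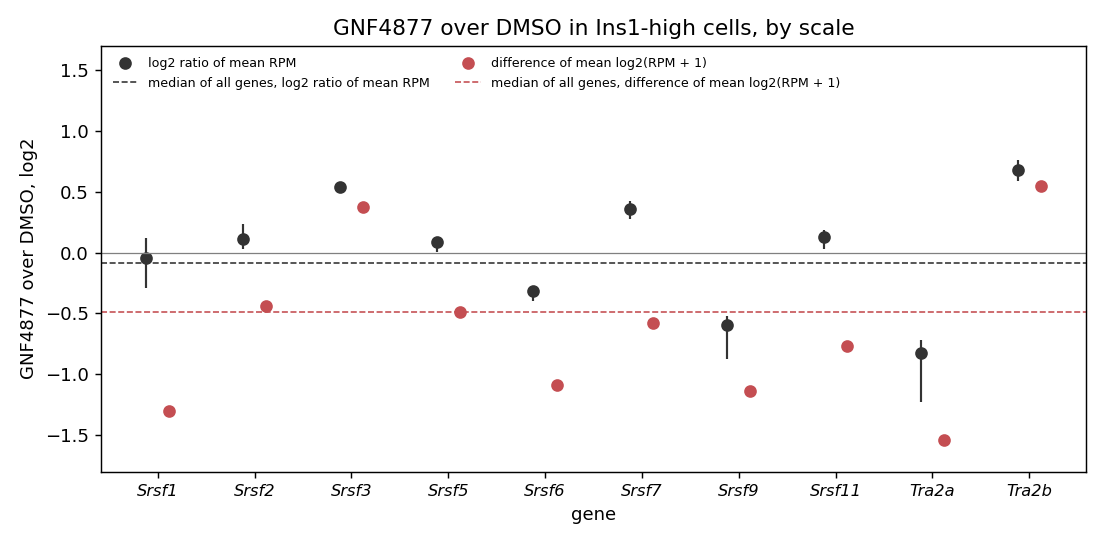
GNF4877 over DMSO in Ins1-high cells (59 and 78 cells) for each of the 10 SR factors, on a log2 axis. Black points are the log2 ratio of mean RPM with a line from the lowest to the highest value after leaving out single cells, red points the difference of mean log2(RPM + 1), and dashed lines the medians of 13368 genes. Srsf3 and Tra2b lie above 0 on both scales, and Srsf1, Srsf6, Srsf9 and Tra2a lie below −1 on the second.

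Tra2b and Srsf3 were the factors with higher values in GNF4877 on both scales. Tra2b, a homologue of the fly splicing regulator transformer-2 that binds enhancers rich in GAA, ran over 0.400, 104.3 and 613.9 RPM as lowest, median and highest of the DMSO cells. In GNF4877 cells these values were 0.477, 138.3 and 866.4 RPM. The cells of both treatments overlapped over nearly all of this range, and the upper part reached further in GNF4877. Its mean was 118.1 RPM (SD 104) in DMSO and 189.5 RPM (SD 170) in GNF4877, a log2 ratio of 0.68, which lay above that of 82.8% of genes. Its difference of mean log2 values was 0.55, above that of 94.9% of genes. Leaving out any single cell gave log2 ratios from 0.59 to 0.76.

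Srsf3, the smallest SR protein and an adaptor for mRNA export, had 8.27, 342.7 and 1120 RPM as lowest, median and highest in DMSO cells and 3.08, 517.3 and 1628 RPM in GNF4877 cells. Its mean was 400.4 RPM (SD 254) in DMSO and 582.8 RPM (SD 394) in GNF4877, so the difference was smaller than the spread between cells of either treatment. The log2 ratio of 0.54 lay above that of 78.9% of genes, and the difference of mean log2 values, 0.37, above that of 91.97%. In cells with at least 6000 genes read, a comparison added after seeing the data with 75 DMSO and 52 GNF4877 cells, the log2 ratio was 0.59 for Srsf3 and 0.51 for Tra2b. Without the cells that carried a second hormone it was 0.73 for Srsf3 and 0.83 for Tra2b. Both genes were thus above 0 also where cells with few genes or with a second hormone were left out.

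Tra2a, the close paralogue of Tra2b, went the other way. It had 0, 8.45 and 135.2 RPM as lowest, median and highest in DMSO cells and 0, 1.25 and 189.3 RPM in GNF4877 cells. Under 10 RPM were 40 of 78 DMSO cells and 45 of 59 GNF4877 cells, while the highest GNF4877 cell was above any DMSO cell. The mean was 21.1 RPM (SD 25.6) in DMSO and 11.5 RPM (SD 28.3) in GNF4877, a log2 ratio of −0.82. GNF4877 cell 16 alone held 27.96% of all Tra2a in its group, and without that cell the log2 ratio was −1.23, which would count Tra2a as 2-fold lower. On the scale of log2 per cell the difference was −1.54, and 10.2% of genes lay lower.

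Srsf9, a small SR protein known as SRp30c, showed the same form. Its lowest, median and highest values were 0, 12.8 and 94.7 RPM in DMSO cells and 0, 2.74 and 154.5 RPM in GNF4877 cells. The mean was 19.6 RPM (SD 20.9) against 12.7 RPM (SD 26.1), a log2 ratio of −0.59 that was −0.88 without GNF4877 cell 6, the highest. Srsf9 was under 10 RPM in 34 of 78 DMSO cells and in 43 of 59 GNF4877 cells.

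Srsf1, the founding member of the family and a selector of 5′ splice sites, had the same mean in both treatments but was spread differently over the cells. It had 0, 32.8 and 482.9 RPM as lowest, median and highest in DMSO and 0, 2.11 and 498.2 RPM in GNF4877. The means were 50.5 RPM (SD 69.1) and 48.8 RPM (SD 102), with a log2 ratio of −0.05, while the mean of log2 values differed by −1.30. Among the cells with a Srsf1 read, the mean was 65.6 RPM in 60 DMSO cells and 82.3 RPM in 35 GNF4877 cells. The medians of these cells went the other way, 49.6 RPM in DMSO and 36.7 RPM in GNF4877. Cells at 100 RPM or more made up 16.7% of DMSO cells and 15.3% of GNF4877 cells, so the treatments differed in the cells with little or no Srsf1 and hardly in those with much.

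Srsf6, also called SRp55, was lower on both scales. Its lowest, median and highest values were 0, 60.3 and 257.7 RPM in DMSO and 0, 46.1 and 273.9 RPM in GNF4877. The means were 80.5 RPM (SD 67.04) and 64.5 RPM (SD 73.6), a log2 ratio of −0.32, and the mean log2 values differed by −1.09.

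For Srsf2, Srsf5, Srsf7 and Srsf11 the scales disagreed in sign. Srsf2, or SC35, which marks nuclear speckles and also acts in transcription elongation, had a log2 ratio of 0.11 and a difference of mean log2 values of −0.44. It ran over 6.02, 598.7 and 5028 RPM in DMSO and over 0, 453.9 and 3155 RPM in GNF4877. Srsf7, like Srsf3 an adaptor for mRNA export, had a log2 ratio of 0.36 and a difference of −0.58, with medians of 83.1 RPM in DMSO and 78.8 RPM in GNF4877. Srsf11, an SR-like protein that contacts U2AF, gave 0.13 and −0.77, with medians of 103.6 and 86.95 RPM. Srsf5, or SRp40, gave 0.09 and −0.49, with medians of 134.009 RPM in DMSO and 131.1 RPM in GNF4877. Srsf7, for one, was spread wider in GNF4877: it was under 10 RPM in 5.13% of DMSO and 18.6% of GNF4877 cells, and at 100 RPM or more in 41.03% and 47.5%. The range between the lower and upper quartile of the cells overlapped between treatments for all 10 factors.

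**Figure D2:**
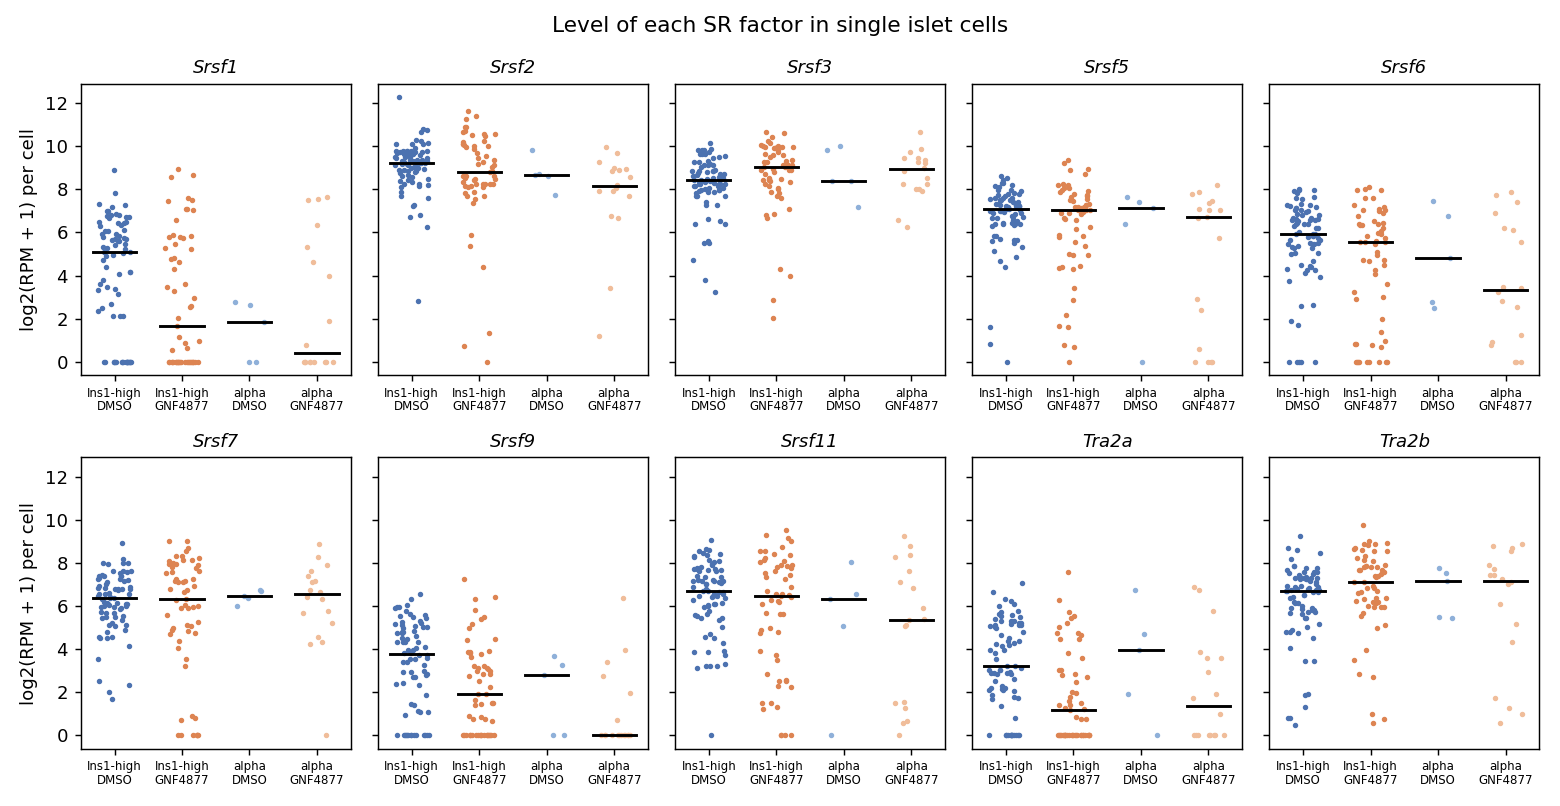
Each point is a cell, at log2(RPM + 1) of the factor named above the panel, in 78 Ins1-high DMSO cells, 59 Ins1-high GNF4877 cells, 5 alpha DMSO cells and 18 alpha GNF4877 cells, with bars at the medians. For Srsf1, Srsf9 and Tra2a many GNF4877 cells lie at 0 while others reach the level of the highest DMSO cells, and the treatments overlap in every panel.

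Srsf5 was listed with 3 RefSeq transcripts and every other factor with 1. The rows NM_001195505.1, NM_001195506.1 and NM_019257.3 had means of 49.7, 46.3 and 47.01 RPM in Ins1-high DMSO cells, and each held between 32.4% and 34.7% of the Srsf5 sum. Across those 78 cells the rows correlated with each other at r from 0.92 to 0.95, so they behaved as near copies, and no level can be given for 1 Srsf5 transcript alone. The ratio of Srsf5 is therefore that of the gene and not of an isoform.

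The share of cells with a read was compared after thinning each cell to 100000 reads, which left out 2 Ins1-high DMSO cells and 1 GNF4877 cell. At this depth Srsf1 was read in 53 of 76 DMSO cells, or 69.7% (58.1% to 79.8%, a 95% binomial interval by the Clopper-Pearson method), and in 24 of 58 GNF4877 cells, or 41.4% (28.6% to 55.1%). Tra2a was read in 59.2% (47.3% to 70.4%) and 36.2% (23.99% to 49.9%), and Srsf9 in 63.2% (51.3% to 73.9%) and 37.9% (25.5% to 51.6%). Srsf6 was read in 89.5% (80.3% to 95.3%) of DMSO and 68.97% (55.5% to 80.5%) of GNF4877 cells. These intervals and limits cover counting error over cells only. Cells of a treatment are not replicates of it, and PCR reads without molecular tags are not independent molecules. Each of these 4 genes also had the lower mean in GNF4877, though for Srsf1 hardly so. Over all genes the median share was 43.4% in DMSO and 27.6% in GNF4877, and the median difference was −9.66 percentage points, so a lower share was common. The difference was −28.4 points for Srsf1, −25.2 for Srsf9, −23.0 for Tra2a and −20.5 for Srsf6. Without thinning the shares were 76.9% and 59.3% for Srsf1, 82.1% and 67.8% for Srsf9, 83.3% and 55.9% for Tra2a, and 93.6% and 84.7% for Srsf6. Without cells that carry a second hormone, the thinned shares were 66.7% and 40.7% for Srsf1, 84.3% and 68.5% for Srsf6, 54.9% and 38.9% for Srsf9, and 49.02% and 35.2% for Tra2a. The gap was thus narrower in those cells for each of the 4 genes, and least so for Srsf1.

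Shares of Srsf2, Srsf5, Srsf7 and Srsf11 were also lower in GNF4877 with differences from −3.45 to −13.3 points, but their means were higher, so no order is read from them. Srsf3 was read in all 76 DMSO cells and 57 of 58 GNF4877 cells, and Tra2b in 94.7% and 96.6%. Tra2b was the factor with a share that was not lower in GNF4877.

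**Figure D3:**
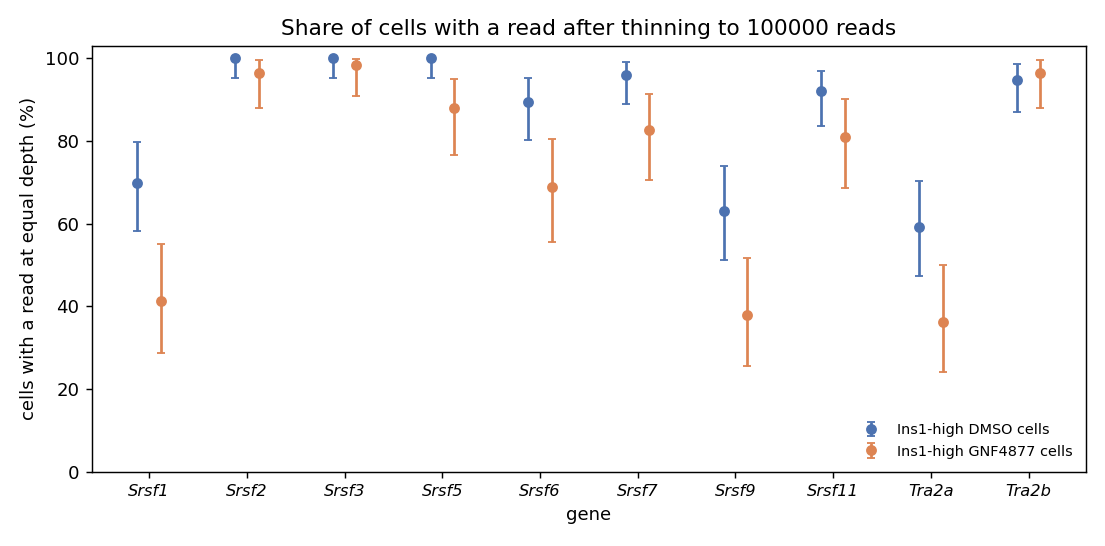
Share of Ins1-high cells with at least 1 read of each factor after thinning to 100000 reads, in percent, for 76 DMSO and 58 GNF4877 cells with exact 95% binomial intervals. Srsf1, Srsf9 and Tra2a lie between 36.2% and 41.4% in GNF4877 and between 59.2% and 69.7% in DMSO, and Tra2b is near 95% in both.

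Counted per cell, fewer of the 10 factors were read together in GNF4877. At equal depth the median number was 9 in DMSO and 7 in GNF4877, and without thinning it was 10 and 9. All 10 were read in 24 of 76 thinned DMSO cells, or 31.6% (21.4% to 43.3%), and in 0 of 58 GNF4877 cells, which allows a share of up to 5.17% by a limit of 3 counts and up to 6.16% by the Clopper-Pearson method. Without thinning the numbers were 47 of 78 cells, or 60.3% (48.5% to 71.2%), and 8 of 59, or 13.6% (6.04% to 24.98%). Among cells without a second hormone they were 27 of 53 in DMSO and 6 of 55 in GNF4877, and among the 25 DMSO cells with one they were 20. The number of factors read followed the number of all genes read in the same cell, with r = 0.73 over the 78 DMSO cells and r = 0.74 over the 59 GNF4877 cells. Both numbers share the depth and quality of the cell, and what part that has in the difference between treatments was not tested.

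In alpha cells the comparison of treatments rests on 5 DMSO cells. The median log2 ratio over the 10 factors was 0.09 against 0.27 over 11889 genes, and the median difference of mean log2 values was −0.81 against −0.40. Outside the hormone genes it was −0.23 against 0.04, and leaving out single cells gave −0.14 to 0.36, so the sign of the group median was not fixed. One factor, Srsf1, was 2-fold higher, against 34.9% of genes, and none was 2-fold lower, against 23.8%. As a difference of mean log2 values Srsf1 (1.08) was higher by 1 or more, against 10.8% of genes, and Srsf6 (−1.198) and Tra2a (−1.36) were lower, against 31%. The summed level of the 10 factors had a mean of 1549 RPM (SD 620, n = 5 cells) in DMSO and 1535 RPM (SD 619, n = 18 cells) in GNF4877, nearly the same. Other markers differed in their summed means between DMSO and GNF4877 alpha cells. These were 927.4 and 367.3 RPM for beta, 379.9 and 167.4 RPM for delta and 19.1 and 1313 RPM for PP markers. They were 250.6 and 445.2 RPM for duct and 1.98 and 201 RPM for mesenchymal markers. The medians over cells were 846.5 and 229 RPM for beta, 201.8 and 241.7 RPM for duct and 4.16 and 6.16 RPM for PP markers. For delta (9.73 and 127.1 RPM) and mesenchymal markers (1.74 and 0 RPM) the medians went the other way from the means. Nkx6-1 and Mafa were at 0 in both treatments. The median number of genes read was 7026 in DMSO and 5864.5 in GNF4877 alpha cells, and 5054 and 3973 at equal depth. The part of these differences in the results on alpha cells was not tested.

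Srsf1 was at 2.61, 0, 5.20, 5.92 and 0 RPM in DMSO alpha cells 33, 67, 89, 90 and 94, from 10 reads in all. In GNF4877 alpha cells its lowest, median and highest values were 0, 0.354 and 197.8 RPM. All DMSO cells were thus low, and so were most GNF4877 cells, while 7 of the 18 were at 10 RPM or more. The means of 2.75 and 40.4 RPM gave a log2 ratio of 3.47, which was 2.70 at equal depth, 1.98 with 10 RPM added in place of 1 and 1.08 as a difference of mean log2 values. Srsf1 was read in 3 of 5 DMSO cells and 9 of 18 GNF4877 cells.

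The other 9 factors had log2 ratios from −0.70 for Tra2a to 0.49 for Srsf7, and for Srsf6, Srsf9, Srsf11 and Tra2a a single cell moved the value by more than 1.5-fold. Tra2a was at 25.3, 14.9, 108.2, 0 and 2.78 RPM in the DMSO alpha cells, in the same order. Without DMSO cell 89 its ratio of −0.70 became 0.71, and it passed the 2-fold mark without GNF4877 cell 66 (−1.22) or 71 (−1.16) or DMSO cell 90 (−1.01). At equal depth Tra2a stood at −1.76. Srsf6 went from −0.28 to 0.53 without DMSO cell 94, Srsf9 from 0.23 to −1.08 without GNF4877 cell 8, and Srsf11 from 0.46 to 1.32 without DMSO cell 33. Srsf3 was at 146.4, 913.8, 329.7, 334.6 and 1017 RPM in the DMSO cells, with a ratio of −0.04. Tra2b, at 186.5, 43.03, 142.5, 44.4 and 215.4 RPM, had 0.42. As a difference of mean log2 values Tra2b stood at −0.74, Srsf7 at −0.33, Srsf9 at −0.89 and Srsf11 at −0.28, so for these 4 factors the direction turned with the measure. Neither Srsf3 nor Tra2b differed between treatments by more than the spread of its cells. With the Ins1 limit set at 100 RPM, which left 2 DMSO cells and 16 GNF4877 cells, Srsf3 stood at 1.27, Srsf5 at 1.17, Srsf9 at 1.02 and Tra2a at −1.67, so this comparison says little about single factors.

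Between cell types of the same treatment, GNF4877 alpha cells (18) were compared with GNF4877 Ins1-high cells (59). The median number of genes read was 5864.5 in alpha and 7031 in Ins1-high cells, and 3973 and 4918.5 at equal depth. How much this adds to the ratios was not tested. The median log2 ratio of alpha over Ins1-high was −0.23 over the 10 factors and −0.42 over 12822 genes. Srsf2 was 2-fold lower in alpha cells, 1 of 10 factors against 33.6% of genes, and no factor was 2-fold higher, against 13.7%. Srsf2 ran over 1.25, 281.8 and 997.9 RPM as lowest, median and highest in alpha cells, with a mean of 360.8 RPM (SD 266), against a mean of 748.6 RPM (SD 702) in Ins1-high cells. The highest alpha cell was thus below the upper quartile of the Ins1-high cells, 1090 RPM, while the lower parts of both groups overlapped. Its log2 ratio was −1.05, but it fell short of the 2-fold mark when any 1 of 7 cells was left out. These were Ins1-high cells 86 (−0.97), 35 (−0.98) and 11 (−0.99) and alpha cells 59 (−0.97), 66 (−0.97), 7 (−0.99) and 77 (−0.99). In the DMSO cells Srsf2 had means of 469.5 RPM in alpha and 691.6 RPM in Ins1-high cells.

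Tra2a had the highest ratio of alpha over Ins1-high, 0.62, but at equal depth it was −0.24. Without alpha cell 66 it was 0.10 and without Ins1-high cell 16 it was 1.03. Srsf9 stood at −0.89 and at −2.19 without alpha cell 8, which held 70.5% of the Srsf9 of its group. Srsf5 had −0.63, with 4 of 18 alpha cells lacking a read. As a difference of mean log2 values Srsf5 (−1.53) and Srsf9 (−1.12) were lower by 1 or more, against 20% of genes, and no factor was higher by 1 or more, against 3.39%. Srsf1, Srsf3, Srsf6, Srsf7, Srsf11 and Tra2b had ratios between −0.27 and −0.07. Their differences of mean log2 values were 0.53 for Srsf7 and 0.10 for Srsf3, so for both the direction turned with the measure. The others stood at −0.29 for Srsf1, −0.74 for Srsf11 and −0.78 for Srsf6 and Tra2b. Over reads outside the hormone genes, which take a median of 27.4% of reads in these alpha cells and 3.84% in the Ins1-high cells, the median of the 10 factors was 0.08 and that of all genes −0.10. The distance from the median of all genes was 0.19 and 0.18 on these denominators. As a difference of mean log2 values the median of the 10 factors was −0.76 against −0.27 over all genes, a distance of −0.49. Both the sign of the group median between the cell types and its place relative to all genes thus depended on the measure.

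Ccnb1 codes for cyclin B1, which is made before mitosis, and marked 19 of the 59 Ins1-high GNF4877 cells with at least 1 read. In those cells 8 of the 10 factors had a higher mean than in the 40 cells without Ccnb1, and Srsf2 and Srsf11 had a lower one, while 49.8% of all genes had a higher mean. The median log2 ratio was 0.42 against 0.00 over 12620 genes, and 0.43 against 0.11 as a difference of mean log2 values. The summed level of the 10 factors hardly differed, with means of 2099 RPM in positive and 2089 RPM in negative cells. In mean RPM no factor was 2-fold higher, against 17.6% of genes, or 2-fold lower, against 17.3%. As a difference of mean log2 values Srsf7 (1.49), Srsf1 (1.298) and Srsf5 (1.01) were higher by 1 or more, against 10.5% of genes, and no factor was lower by 1 or more, against 3.48%. With Ccnb1 set at 10 RPM or more, which marked 11 cells, the median was 0.83. Ccnb1-positive cells had a median of 7212 genes read and the negative cells 6913, and a median of 1583250 and 1381750 mapped reads, and how much this adds to the ratios was not tested. Summed markers differed too, with means in positive and negative cells of 60978 and 41504 RPM for beta, 2887 and 637.7 RPM for alpha, 844.1 and 14.6 RPM for delta and 125.9 and 1042 RPM for PP cells. A second hormone was absent from 16 of the 19 positive and 39 of the 40 negative cells, and in those cells the median log2 ratio of the 10 factors was 0.44.

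By both measures 7 factors were higher in Ccnb1-positive cells, where 57.5% of all genes were higher as a difference of mean log2 values. Of these 7, Srsf7, Tra2b, Srsf3 and Srsf5 stayed above 0 in the log2 ratio without any single cell. Srsf7 had a median of 141 RPM in positive and 64.6 RPM in negative cells, with means of 179.3 and 108.5 RPM, a log2 ratio of 0.72 that was between 0.56 and 0.83 without any single cell. With Ccnb1 set at 10 RPM or more the ratio of Srsf7 was 1.33, so its size depended on the measure and the Ccnb1 limit. Srsf9 turned from 0.25 to −0.42 at that limit. Tra2b had medians of 192.5 and 125.5 RPM and means of 250.3 and 160.7 RPM, a log2 ratio of 0.64 with a range of 0.43 to 0.71 without any single cell. Srsf3 had medians of 622.1 and 483.3 RPM and a log2 ratio of 0.33, and Srsf5 had a lower median in positive cells, 124.4 against 131.1 RPM, but a higher mean. The quartile ranges of positive and negative cells overlapped for each of these genes.

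Srsf2 had the lower values in Ccnb1-positive cells, with medians of 373.5 and 570.3 RPM, means of 513.7 and 860.2 RPM and a log2 ratio of −0.74. Its difference of mean log2 values was −0.94, and 4.13% of genes lay lower. Srsf11 stood at −0.33 on the first measure and at −0.49 on the second. Tra2a had a ratio of 0.76, but without GNF4877 cell 16, the cell that also led it above, the ratio was −0.41, and without cell 50 it was 1.04. Srsf1 went from 0.50 to −0.04 without GNF4877 cell 16. Srsf9 went from 0.25 to −0.15 without GNF4877 cell 14. Srsf5 stood at 0.33 and Srsf6 at 0.53, and for Srsf6 the difference of mean log2 values was −0.13.

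Across cells the 10 factors were only loosely related. Over the 78 Ins1-high DMSO cells the 45 pairs had a median Pearson r of log2(RPM + 1) of 0.28, from −0.06 for Srsf2 with Srsf6 to 0.56 for Srsf5 with Tra2b. Over the 59 Ins1-high GNF4877 cells the median was 0.13, from −0.17 for Srsf1 with Srsf11 to 0.34 for Srsf2 with Srsf11. The Spearman rho of Srsf5 with Tra2b in DMSO was 0.20. Pairs at r of 0.3 or more numbered 20 in DMSO and 4 in GNF4877. By Spearman rho fewer pairs reached 0.3 in either treatment, so the gap between these numbers depended on the measure. The highest rho was 0.42 in DMSO, for Srsf6 with Srsf9, and 0.41 in GNF4877, for Srsf6 with Srsf7. The cells of a treatment share their culture and differ in depth and in genes read: the mean log2 level of the 10 factors followed log2 of the genes read with r = 0.81 in DMSO and r = 0.66 in GNF4877.

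The genes whose log2 level most resembled the mean of the 10 factors over the Ins1-high DMSO cells were H3f3b (r = 0.77), a gene of the replacement histone H3.3, Psmc5 (0.75) of the proteasome, Prnp (0.75), which codes for the prion protein, Zc3h11a (0.74), an mRNA export factor, and LOC100911576 (0.74). Over the 59 GNF4877 cells their r was 0.57, 0.24, 0.25, 0.46 and 0.49. The median over the 8456 genes read in at least 50% of the DMSO cells was 0.30 in DMSO and 0.17 in GNF4877. The part of depth and of genes read in these r values was not tested.

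The kinases that act on SR proteins and their relatives form the first of the lists set beside the factors. Of 16 genes 14 had a mean of at least 1 RPM in Ins1-high cells, none of them was 2-fold higher or lower, against 10.1% and 17.2% of all genes, and the median log2 ratio was −0.14. As a difference of mean log2 values, all 14 were lower in GNF4877, with a median of −0.93, against −0.67 for the 10 SR factors and −0.49 for all genes, of which 21.3% were above 0. Clk1 had means of 139 RPM in DMSO and 160.9 RPM in GNF4877, a log2 ratio of 0.21. Clk2 stood at 33.6 and 44.4 RPM (0.39), Clk4 at 72.8 and 90.96 RPM (0.32) and Clk3 at 77.8 and 55.03 RPM (−0.49). Among the CLK genes Clk3 was thus the one with a lower mean. Srpk1 had a log2 ratio of 0.35, and Srpk2, with 112 and 58.01 RPM, had −0.94, or −1.13 without GNF4877 cell 18. Srpk3 was listed at 0 in every Ins1-high cell. Prpf4b, a nuclear kinase of the same group, stood at −0.74, Hipk1 at −0.78 (−1.21 without GNF4877 cell 31) and Hipk2 at −0.87 (−1.1004 without GNF4877 cell 21).

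Of the kinases that GNF4877 inhibits, Dyrk1a had means of 7.71 and 10.8 RPM, a log2 ratio of 0.44 that turned to −0.41 without GNF4877 cell 81. Gsk3b had 135 and 205 RPM, a log2 ratio of 0.60. Dyrk2 stood at 0.45, Dyrk3 at −0.57 (−1.199 without GNF4877 cell 1) and Gsk3a at −0.61 (−1.04 without GNF4877 cell 48), and Dyrk1b was under 1 RPM in both treatments. In GNF4877 alpha cells Clk1 had a mean of 456.1 RPM, 1.498 above the Ins1-high cells on the log2 scale, against 13.7% of all genes that were 2-fold higher there. It had the highest such ratio of the kinase list, whose median was −0.43, while the SR factors of the same cells had a median of −0.23.

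Other SR and SR-related proteins had a median log2 ratio of 0.11 and a median difference of mean log2 values of −0.70 over 28 genes. Of these 2 were 2-fold higher, Rsrc1 (17.1 and 43.4 RPM, 1.30) and Srsf12 (3.22 and 8.41 RPM, 1.16), and 2 were 2-fold lower, U2af2 (4.58 and 1.02 RPM, −1.47) and Scaf11 (100.2 and 47.3 RPM, −1.07). Over all 13368 genes 10.1% were 2-fold higher and 17.2% lower, so these counts, like those of the lists that follow, are to be read beside those shares. Srsf12 stood at 0.60 without GNF4877 cell 18 and U2af2 at −0.09 without DMSO cell 16, so Rsrc1 and Scaf11 were the ones that kept the 2-fold mark without any single cell. The 24 hnRNP genes, which often oppose SR proteins at exons, had a median of 0.03 in the ratio and −0.62 as a difference of mean log2 values, against 0.10 and −0.67 for the SR factors. Raly (1.204, and 0.81 without GNF4877 cell 14) was higher, Ptbp3 (34.6 and 7.74 RPM, −2.02) was lower, and Tardbp (0.97, or 1.05 without DMSO cell 43) and Hnrnpul2 (−0.85, or −1.67 without GNF4877 cell 87) followed.

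Core spliceosome genes had a median log2 ratio of 0.35 over 31 genes and a median difference of mean log2 values of −0.19, with 4 genes 2-fold higher, against 10.1% of all genes, and 1 lower, against 17.2%. Prpf3 (1.65), Prpf31 (1.31), Snrpb (1.24) and Snrpa1 (1.10) were higher, and Sf3a2 (−1.42) and Snrpf (−0.89) had the lowest values. Prpf31 fell under the mark without GNF4877 cell 79 (0.50), Snrpa1 without cell 86 (0.96), and Sf3a2 without DMSO cell 69 (−0.98). Genes of nonsense-mediated decay and the exon junction complex, which act on transcripts with a poison exon, had a median of 0.20 over 13 genes in the ratio and −0.73 on the other measure. Upf3a (−1.15) and Smg5 (−1.08, or −0.86 without DMSO cell 77) were 2-fold lower, 2 of 13 against 17.2% of all genes, none was 2-fold higher, and Magohb stood at 0.48.

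Other splicing regulators had medians of −0.36 and −0.84 over 21 genes on these measures. Esrp1 (1.38) and Elavl1 (446 and 1064 RPM, 1.25) were higher, and Khdrbs3 (−1.29, or −2.25 without GNF4877 cell 23), Elavl4 (−1.11, or −0.98 without DMSO cell 31) and Tia1 (−1.08, or −0.91 without DMSO cell 42) were lower. For SR protein import and phosphatases the medians over 9 genes were −0.73 and −1.25. Tnpo1 (99.3 and 38.01 RPM, −1.36) was 2-fold lower, and Tnpo3, the import receptor of SR proteins, had 88.9 and 142.6 RPM (0.68). Ppp1ca, a catalytic subunit of a phosphatase that acts on SR proteins, stood at 0.34, and Ppp1r8 at −0.99, or −1.598 without GNF4877 cell 13. In no list did both measures place the median above 0. Among the genes named with a higher mean, the difference of mean log2 values was below 0 for Srsf12 (−0.07), Raly (−0.32), Prpf31 (−0.05), Magohb (−0.22), Tnpo3 (−0.67) and Ppp1ca (−0.06), and for Prpf3 it was 0.07. It was above 0 for Rsrc1 (0.33), Tardbp (0.33), Snrpb (0.80), Snrpa1 (0.297), Esrp1 (0.65) and Elavl1 (1.21), so for those both measures gave the same direction.

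Since Srsf3 and Tra2b were higher in GNF4877 cells by both measures and Srsf9 was lower, the 250 bases before their RefSeq start sites (GRCr8) are shown. Promoters were matched by symbol for 9 of the 10 factors, all but Tra2a. Capitals mark the motifs searched on both strands. These were the box CCAAT, bound by NF-Y, the box GGGCGG, bound by Sp1, and the letters TATAAA of the core promoter. For the cell cycle factors E2F the letters were TTTCCCGC or TTTGGCGC, for ETS factors they were CCGGAAGT, and for CREB the core of the CRE, TGACG, was used. For NFAT, which calcium activates, GGAAAA was searched, and for the TCF factors that act with beta-catenin the letters were CTTTGAT or else, as a second form, CTTTGAA. In the windows of the 9 factors no 2 different motifs overlapped.
Srsf3, chr20:7093335-7093584, plus strand: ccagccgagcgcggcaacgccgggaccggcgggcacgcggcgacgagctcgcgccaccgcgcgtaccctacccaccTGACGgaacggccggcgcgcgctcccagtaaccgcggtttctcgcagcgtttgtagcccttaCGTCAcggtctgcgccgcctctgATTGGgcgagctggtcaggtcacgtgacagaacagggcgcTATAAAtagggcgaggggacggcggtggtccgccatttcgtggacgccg
Tra2b, chr11:92293192-92293441, plus strand: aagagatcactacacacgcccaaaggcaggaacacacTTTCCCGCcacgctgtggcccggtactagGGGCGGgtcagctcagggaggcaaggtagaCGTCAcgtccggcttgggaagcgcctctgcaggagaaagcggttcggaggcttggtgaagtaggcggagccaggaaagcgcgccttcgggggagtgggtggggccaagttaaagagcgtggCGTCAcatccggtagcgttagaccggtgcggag
Srsf9, chr12:46945148-46945397, minus strand: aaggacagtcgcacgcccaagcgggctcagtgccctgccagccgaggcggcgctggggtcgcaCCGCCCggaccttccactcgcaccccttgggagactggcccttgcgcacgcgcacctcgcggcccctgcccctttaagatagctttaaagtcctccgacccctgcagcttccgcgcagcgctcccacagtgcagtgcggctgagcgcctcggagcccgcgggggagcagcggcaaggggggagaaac

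The CRE core TGACG stood 2 times in Srsf3 and 2 times in Tra2b and not in Srsf9. It was found in 6 of the 9 windows, those of Srsf1, Srsf3, Srsf5, Srsf6, Srsf11 and Tra2b, and in 18.2% of 33469 promoters of the same length. The E2F letters were in Tra2b and in 1.21% of all promoters, the ETS letters in Srsf5 and in 3.10%, and TATAAA in Srsf2 and Srsf3 and in 12.9%. The GC box was in 7 of the 9 windows and in 30.5% of all promoters, CCAAT in 3 and in 34.02%, NFAT letters in Srsf1 and in 21.6%, and TCF letters in 0 and in 7.58%. All 9 windows held more G and C, from 58.8% to 70.4%, than the median promoter, 51.2%. A match describes the sequence, and no binding was measured here.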

How the data were processed

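The authors deposited a table of RPM values, reads scaled to the mapped reads of a cell, for 27586 RefSeq transcripts in 170 cells, in which 0.01 stands where no read was counted (69.7% of values). The labels name CASAVA 1.8.2, BWA 0.5.9 and SAMtools 0.1.19. Row names are rat RefSeq transcripts although the study's methods speak of a mouse transcriptome, and the build is not given in the sources used here. The value 0.01 was set to 0, rows of a symbol were summed, and no 2 cells were identical. Reads per cell, 241604 to 2499138 mapped, were recovered from the smallest step, and values up to 20 reads were whole within 0.1 reads in 100% of cases. Doublets were judged by the authors under the microscope, and no caller was run here.

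Ratios are log2 of mean RPM + 1, over genes with a mean of at least 1 RPM in the 2 groups, with 2-fold as the mark. Thinning drew 100000 reads without replacement (seed 1). In simulated cells 200 genes were changed 4-fold, and 100% of them passed the 2-fold mark. The spread between the simulated cells was set by hand, and changes under 2-fold, like those of the SR factors in Ins1-high cells, were not simulated. Scripts ran in Python 3.11.15 with scipy 1.17.1, matplotlib 3.10.9, pandas 2.3.3 and numpy 2.4.6. Named are the 10 factors, the kinase list, up to 2 of the highest and 2 of the lowest ratios of each other list, and the 5 genes most like the factors. Snrpa1, Snrpb and Tia1, past 2-fold and outside this rule, were named after their values were seen, and so were the motifs and promoters. The members and lists were chosen with earlier results of these data known. U2af1, Hnrnpd, Hnrnpdl, Hnrnph1, Hnrnpll, Snrpd3, Sf3b6, Upf1, Smg1, Pym1, Dhx34 and Qki of the lists were not in the table under these symbols. Alternatives changed the pseudocount, scale, depth, denominator, rows, Ins1, Gcg and Ccnb1 limits, and left out single cells or cells with a second hormone.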

Additional observations from a re-analysis of the deposited data

How the results depend on the processing

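Each treatment is 1 sample, so no setting gives a replicate check, and ratios were called moved where they changed by more than 1.5-fold. No paired analysis was possible because cells of 1 treatment have no partner in the other. With log2(RPM + 1) averaged per cell, the median over the 10 factors was −0.67 in place of 0.10 for GNF4877 over DMSO in Ins1-high cells and −0.81 in place of 0.09 in alpha cells, and 4 factors in place of 0 were 2-fold lower in Ins1-high cells. Leaving out single cells gave 0 to 1 factors 2-fold lower there, and the 1 was Tra2a without GNF4877 cell 16. The other settings moved none of the group medians, summed levels or numbers of factors read by that much. Under them the median in Ins1-high cells ran from −0.05 outside the hormone genes to 0.17 without cells that carry a second hormone, the summed level from 0.11 to 0.33, and the median in alpha cells from −0.23 to 0.36, so the sign of both medians depended on the setting. Of 530 values of single factors under these settings, 38 moved. A change of sign was counted for 2-fold differences alone, which were Srsf1 in alpha cells and Srsf2 of alpha over Ins1-high cells. Neither of them changed sign. Smaller ratios did turn, such as that of Tra2a in alpha cells from −0.70 to 0.71 without DMSO cell 89. For GNF4877 over DMSO in Ins1-high cells, 5 factors moved, all with the change of scale, and the cause was not tested. In alpha cells 9 factors moved with the scale, and for Srsf7, Srsf9, Srsf11 and Tra2b the sign turned with it. Settings added after seeing the data left out cells with under 100000 listed reads or under 6000 genes, or took RPM outside the hormone genes. At 100000 reads per cell, 1 read is worth 10 RPM, so levels under that cannot be told from 0 in a thinned cell.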
